A study of Mus musculus with 23 samples.

Results

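The difference of the LPS response by prenatal history was measured as the change of chromatin accessibility after lipopolysaccharide (LPS) in control (CON) offspring minus that in offspring after maternal immune activation (MIA). All 23 of the 23 libraries of the series entered it, and 44473 of 71472 merged peak intervals were tested, those with a peak in at least 3 libraries. The groups were MIA_LPS (n = 5), MIA_SAL (n = 6), CON_LPS (n = 7) and CON_SAL (n = 5). Each library was an ATAC-seq library, in which the transposase Tn5 cuts and tags open chromatin, from microglia of the striatum of male mice 8 to 10 weeks old, and the LPS groups had been injected into the peritoneum with 4500 endotoxin units of LPS per gram of body weight, while the SAL groups had received saline. Cells were taken 18 hours later from both. The agent that activated the immune system of the dams and the strain were not given in the sources used here. Sorting kept cells that were alive, CD11b+, CD45-low and P2RY12+, so cells that had lost P2RY12 or gained CD45 were not sampled in any group. The ID labels hold 14 numbers of unknown meaning for the 23 libraries, none of them in both prenatal groups. Of these, 8 are shared by 2 or more libraries, 17 libraries in all, and 5 are shared by LPS and saline libraries. The fits below take libraries as independent, and the labels do not tie every library to an animal of its own, so p-values measure the spread among libraries, which may be technical in part.

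Microglia are the resident macrophages of the brain and bear TLR4, the receptor for LPS. Signalling from TLR4 reaches NF-kB, AP-1 and interferon regulatory factors, which open enhancers of cytokine and feedback genes on top of a landscape kept by the myeloid factor PU.1. A macrophage that has met an immune stimulus can respond less to the next one (tolerance) or more (priming), and the title of the series speaks of a blunted reactivity. The comparison asks whether the LPS response of chromatin was smaller, equal or moved to other places in MIA offspring.

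The promoters shown here overlap intervals described below. The first 6 belong to the intervals raised in both offspring groups with the largest response shared by both, Pygm is 1 of the 4 lowered in both with the largest, and Liph was chosen for its difference. They are the RefSeq sequences of GRCm38.p6 from 250 bases before to 50 bases after the start of the gene, 5′ to 3′ along the gene, with matches to 6 motifs in capitals. The intervals cover 133 to 300 bases of each window, and those of Sqor and Capg end before the gene start. Cxcl2 (a chemokine that draws neutrophils, chr5:90903649-90903948, plus strand) holds an NF-kB match at bases 154 to 162. Mt2 (a metal-binding metallothionein, chr8:94172368-94172667, plus strand) holds AP-1 at bases 172 to 178 and C/EBP at bases 239 to 246. In Slco2b1 (an organic anion transporter, chr7:99711291-99711590, minus strand) PU.1 at bases 258 to 265 overlaps AP-1 at bases 264 to 270. Sqor (a mitochondrial enzyme that oxidises sulfide, chr2:122771463-122771762, plus strand) holds an ISRE match at bases 103 to 111. Capg (an actin-capping protein, chr6:72549397-72549696, plus strand) and Trem1 (a receptor that amplifies inflammatory signals in myeloid cells, chr17:48232489-48232788, plus strand) hold none of the 6. Pygm (muscle glycogen phosphorylase, chr19:6384158-6384457, plus strand) also holds none, and none of the 4 lowered promoters holds any. Liph (a lipase that makes lysophosphatidic acid, chr16:21995493-21995792, minus strand) holds C/EBP at bases 194 to 201 and NF-kB at bases 205 to 213.
Cxcl2: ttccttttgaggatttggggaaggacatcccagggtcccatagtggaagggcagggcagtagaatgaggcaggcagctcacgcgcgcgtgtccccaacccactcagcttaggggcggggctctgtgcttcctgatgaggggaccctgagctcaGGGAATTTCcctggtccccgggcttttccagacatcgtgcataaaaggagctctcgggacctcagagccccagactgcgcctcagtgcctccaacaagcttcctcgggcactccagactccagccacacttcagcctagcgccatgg
Mt2: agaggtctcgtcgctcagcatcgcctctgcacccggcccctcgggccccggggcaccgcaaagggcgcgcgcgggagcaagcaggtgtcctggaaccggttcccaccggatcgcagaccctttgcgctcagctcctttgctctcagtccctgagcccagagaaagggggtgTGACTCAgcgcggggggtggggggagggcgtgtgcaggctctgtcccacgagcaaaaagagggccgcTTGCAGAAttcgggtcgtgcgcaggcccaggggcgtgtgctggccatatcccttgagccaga
Slco2b1: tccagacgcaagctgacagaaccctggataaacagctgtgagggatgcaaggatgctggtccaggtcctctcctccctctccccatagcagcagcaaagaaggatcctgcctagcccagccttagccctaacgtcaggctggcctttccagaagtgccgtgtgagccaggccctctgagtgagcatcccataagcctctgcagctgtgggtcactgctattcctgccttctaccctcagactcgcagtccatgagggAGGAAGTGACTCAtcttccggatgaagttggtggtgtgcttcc
Sqor: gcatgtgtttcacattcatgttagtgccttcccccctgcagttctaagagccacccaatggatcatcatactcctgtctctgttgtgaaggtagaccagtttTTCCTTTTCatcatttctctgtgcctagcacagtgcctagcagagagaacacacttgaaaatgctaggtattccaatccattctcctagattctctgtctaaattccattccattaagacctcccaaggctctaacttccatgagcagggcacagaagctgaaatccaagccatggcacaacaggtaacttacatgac
Capg: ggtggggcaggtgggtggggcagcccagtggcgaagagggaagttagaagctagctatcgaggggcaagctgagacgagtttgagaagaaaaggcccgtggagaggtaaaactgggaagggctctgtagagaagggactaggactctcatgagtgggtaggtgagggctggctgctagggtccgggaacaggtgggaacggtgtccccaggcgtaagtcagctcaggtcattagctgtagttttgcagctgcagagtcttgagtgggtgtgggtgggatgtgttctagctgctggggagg
Trem1: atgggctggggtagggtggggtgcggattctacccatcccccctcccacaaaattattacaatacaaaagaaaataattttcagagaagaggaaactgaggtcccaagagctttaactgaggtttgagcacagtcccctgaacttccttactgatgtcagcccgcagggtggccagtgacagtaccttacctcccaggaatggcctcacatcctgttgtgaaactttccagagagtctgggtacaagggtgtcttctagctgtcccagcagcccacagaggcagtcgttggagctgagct
Pygm: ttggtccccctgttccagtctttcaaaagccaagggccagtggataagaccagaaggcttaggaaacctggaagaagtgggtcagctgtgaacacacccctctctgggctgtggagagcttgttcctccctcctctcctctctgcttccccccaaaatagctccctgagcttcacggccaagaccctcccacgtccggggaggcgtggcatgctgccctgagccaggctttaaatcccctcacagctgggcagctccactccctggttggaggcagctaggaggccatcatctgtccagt
Liph: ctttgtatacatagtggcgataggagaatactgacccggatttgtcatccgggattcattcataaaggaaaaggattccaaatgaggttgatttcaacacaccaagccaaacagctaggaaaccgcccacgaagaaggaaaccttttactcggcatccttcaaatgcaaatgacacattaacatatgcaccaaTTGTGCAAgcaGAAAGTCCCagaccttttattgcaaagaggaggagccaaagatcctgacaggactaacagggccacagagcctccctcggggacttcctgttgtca

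The motifs were searched on both strands as GGGANTTTC for NF-kB, TGANTCA for AP-1, GAAANNGAA for ISRE (the interferon-stimulated response element), AGGAAGTG for PU.1, TTGCNNAA for C/EBP and TGACGTCA for CRE. Of 88 promoters in intervals that were raised by LPS in both offspring groups, 22 (25.0%) held the AP-1 letters, against 0 of 68 promoters lowered in both, 4.2% of the 9081 promoters in tested intervals and 7.14% of all 17273 promoters. ISRE letters stood in 17.05% of the promoters raised in both, in 4.41% of those lowered in both, in 6.73% of those in tested intervals and in 8.19% of all promoters. NF-kB letters stood in 2 of the 88 raised promoters, that of Cxcl2 among them, in 0 of the 68 lowered, in 0.94% of those in tested intervals and in 1.12% of all. In raised, lowered and tested-interval promoters the shares were 15.91%, 8.82% and 7.4% for C/EBP. For PU.1 they were 3.41%, 5.88% and 4.4%, and for CRE 2.27%, 1.47% and 3.7%. Where the difference between offspring groups had an unadjusted p under 0.05, AP-1 letters stood in 3.9% of 205 promoters with the more positive LPS change in MIA offspring and in 6.5% of 200 with the more positive change in CON offspring. For ISRE letters these shares were 9.76% and 4.0%, for NF-kB 0.98% and 2.5%, for CRE 4.88% and 2.5%, for PU.1 3.9% and 4.5%, and for C/EBP 9.27% and 8.5%. These sets were chosen by the unadjusted p, and no test of the shares was made. A match is a string of letters and was not tested as a site.

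The deposited lists held 51343 ± 11960 peaks (SD) in MIA_LPS, 46784 ± 12459 in MIA_SAL, 42459 ± 4524 in CON_LPS and 43902 ± 6896 in CON_SAL. Read depth is unknown. Every list was therefore shortened to its best 33900 peaks on chromosomes 1 to 19 and X, and the weakest peak kept had a −log10 p between 3.95 and 18.4 in MIA_LPS, 5.06 and 23.2 in MIA_SAL, 5.62 and 8.65 in CON_LPS and 5.68 and 12.3 in CON_SAL. The rank score used below is 100 for the best peak of a library by the authors' −log10 p, falls towards 0 down the list, and is 0 where the library had no peak among those kept. A response is the mean rank score after LPS minus that after saline, in rank points. Of 12 microglial marker genes, 75.0% to 91.7% had a peak within 1 kb of a gene end in each library, and Gpr34 had none in any. Of 16 monocyte and neutrophil markers, 6.25% to 25.0% had one in MIA_LPS, 6.25% in each MIA_SAL library, 12.5% to 25.0% in CON_LPS and 6.25% in each CON_SAL library. Of the 16, 11 had none in any library, Ccr2, Ly6c2 and S100a9 among them. Csf3r had one in 23 libraries, S100a8 in 10, Mmp8 in 9, Camp in 5 and Cxcr2 in 1. The part of such cells in the results was not tested.

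LPS changed the rank of many intervals in both offspring groups. In MIA offspring 3141 intervals rose (7.06% of those tested) and 1978 fell (4.45%). In CON offspring 2829 rose (6.36%) and 2339 fell (5.26%). Of the raised intervals, 1914 were called in both, which is 60.9% of those raised in MIA and 67.7% of those raised in CON offspring. Of the lowered intervals, 924 were called in both, 46.7% of those lowered in MIA and 39.5% of those lowered in CON offspring. No interval, 0 of 44473, was called in opposite directions.

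The difference of the responses itself was called at 0 intervals by the −log10 p ranks (0.0% of 44473, smallest adjusted p 0.452, limma), with 2085 intervals (4.69%) at an unadjusted p under 0.05. By ranks of the authors' fold enrichment 2 intervals were called (0.0045%), both with the more positive change in MIA offspring, and 1943 (4.37%) had an unadjusted p under 0.05. Differences are given as the CON response minus the MIA response, so a positive value means that LPS moved the interval further up, or less far down, in CON offspring. Over all intervals tested the median difference was -0.38 rank points, the 5th and 95th percentiles were -17.7 and 14.7, and the median standard error of 1 interval's difference was 8.55. The sign was the same by both rankings at 89.8% of intervals. Leaving out MIA_LPS replicate 3 gave 2 calls by −log10 p ranks and 4 by fold ranks, leaving out MIA_LPS replicate 4 gave 1 by −log10 p ranks, and leaving out CON_LPS replicate 4 gave 5 by fold ranks.

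Intervals called in 1 offspring group alone mostly had a response of the same sign in the other. The 1914 intervals raised in both had a median response of 37.7 points in MIA and 36.0 in CON offspring. The 1227 raised in MIA alone had a median of 26.7 points in MIA and 12.05 in CON offspring, and 1148 of them were above 0 in CON. The 915 raised in CON alone had 12.1 points in MIA and 24.8 in CON offspring, and 869 were above 0 in MIA. Among lowered intervals, the 924 called in both had medians of -32.7 in MIA and -31.8 in CON offspring, the 1054 called in MIA alone -25.2 and -10.8, and the 1415 called in CON alone -10.7 and -24.9. The threshold that chose each of these sets also fixes which offspring group has the larger median in it. Over all 44473 intervals both responses correlated with Pearson's r = 0.778 by −log10 p ranks and 0.733 by fold ranks, as a description across intervals that share the same libraries.

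**Figure D1:**
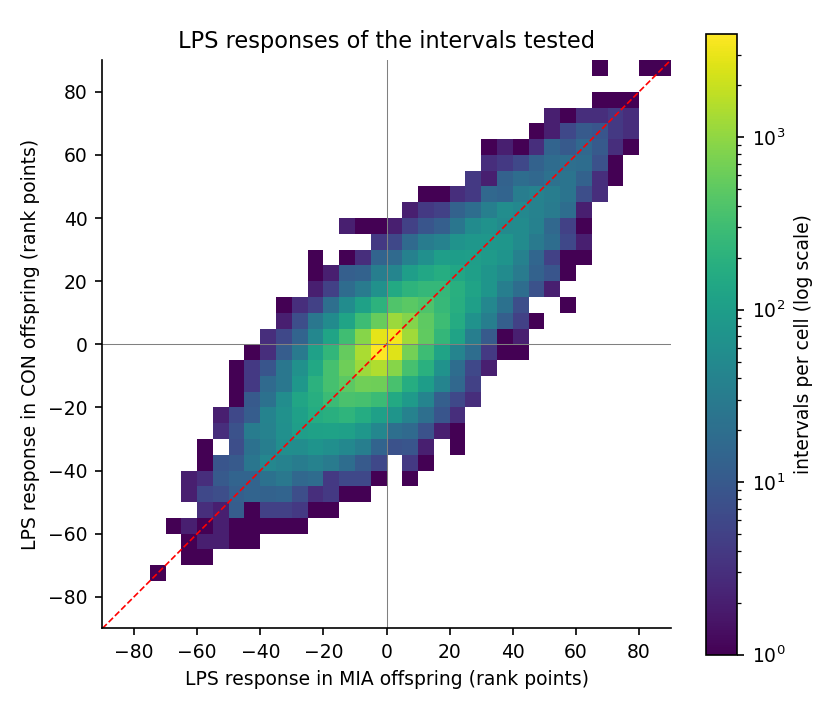
Each cell counts the tested intervals by their LPS response in MIA offspring (x axis, rank points) and in CON offspring (y axis, rank points), on a log colour scale, with the line of equal responses dashed. The 44473 intervals lie along that line, with r = 0.778, and no interval was called in opposite directions.

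The size of the response at the intervals that LPS changed most was then reduced to 1 value for each library. The LPS score is the mean rank score over the 1000 intervals most raised by LPS minus that over the 1000 most lowered, chosen in the other 22 libraries without the prenatal label. It was 41.0, 34.1, 29.2, 34.9 and 40.9 in the MIA_LPS libraries, between -44.4 and -20.6 with a median of -34.4 in MIA_SAL, between 27.1 and 35.4 with a median of 32.8 in CON_LPS, and -36.6, -35.1, -31.3, -38.2 and -40.1 in CON_SAL. Every LPS library lay far above every saline library, and MIA and CON libraries overlapped within each treatment. MIA_LPS replicates 1 and 5 were above all CON_LPS libraries, and MIA_SAL replicate 3 was the highest of the saline libraries.

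The response of the score was 70.2 points in MIA offspring (36.0 ± 5.00 after LPS and -34.2 ± 8.11 after saline, SD) and 68.2 points in CON offspring (31.9 ± 3.44 after LPS and -36.3 ± 3.36 after saline). The difference was -1.97 points, with a 95% interval of -11.5 to 9.86 (exact permutation of the prenatal label within treatments, 365904 assignments, two-sided p = 0.689, adjusted p = 0.999 over 6 tests). With the prenatal label permuted over whole ID numbers, a choice made after the data were seen, the exact permutation p was 0.788 (3002 assignments). By this score the response in MIA offspring was thus 102.9% of that in CON offspring. The interval ran from a response smaller in CON by 16.8% of the CON response to one larger in CON by 14.5% of it. The choice of intervals favours little spread within a treatment and tends to leave out those that respond in 1 offspring group alone. The score therefore mainly measures the response shared by both offspring groups. By fold ranks the difference was -2.02 points (95% interval -13.2 to 10.6, exact permutation p = 0.705, adjusted p = 0.999). The raised part gave 43.2 points in MIA and 41.3 in CON offspring (difference -1.96, 95% interval -6.30 to 3.36, exact permutation p = 0.377, adjusted p = 0.999). The lowered part gave -26.9 points in both (difference 0.0047, 95% interval -8.34 to 7.05, exact permutation p = 0.999, adjusted p = 0.999). None of the 6 tests passed, and a response that is smaller in MIA by up to 9.86 points lies inside the interval.

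The sorted cell number in the labels splits the libraries into 2 classes, and the sign of the score difference was not the same in both. Within libraries of 20000 or more cells the difference was -7.58 points (exact permutation p = 0.0833, 120 assignments) and within those of fewer cells 2.70 points (exact permutation p = 0.638, 525 assignments). By fold ranks it was -7.00 (exact permutation p = 0.050) and 2.90 (exact permutation p = 0.619). The class of 20000 or more cells held MIA_LPS replicates 1, 4 and 5, MIA_SAL replicates 2 and 6, CON_LPS replicates 1, 5 and 6, and CON_SAL replicates 4 and 5. CON_SAL replicates 4 and 5 share ID number 13 and CON_LPS replicates 1 and 6 share ID number 22. The p-values take them as independent. Over intervals with a peak in all 23 libraries the difference was 0.39 by −log10 p ranks and 0.40 by fold ranks. Leaving out 1 library at a time gave -4.49 to 0.14 and -4.55 to 1.25, with a sign change by both rankings without CON_SAL replicate 3 and by fold ranks without MIA_LPS replicate 1.

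**Figure D2:**
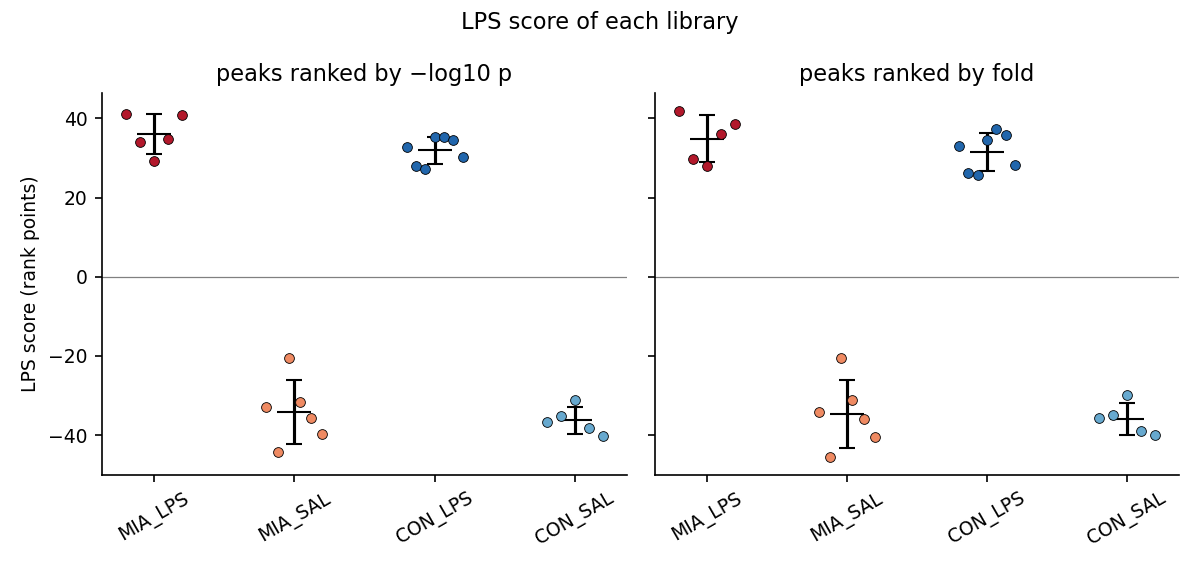
Each point is the LPS score of 1 library in rank points (y axis), by group, with peaks ranked by −log10 p (left) or by fold (right), and the bars show the mean and SD. The 5 MIA_LPS libraries average 36.0 and the 7 CON_LPS libraries 31.9 by −log10 p, and the 6 MIA_SAL libraries average -34.2 and the 5 CON_SAL libraries -36.3.

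The strongest intervals were also looked at in steps. The 500 intervals most raised over all libraries, ranked without the prenatal label, had a median response of 54.5 points in MIA and 51.7 in CON offspring, and 2 of the 500 had an unadjusted p under 0.05 for the difference. The next 500 had 40.9 and 38.7 points. The 500 most lowered had -38.8 points in MIA and -39.0 in CON offspring, with 12 at an unadjusted p under 0.05, against 4.69% of all intervals. The ranking favours intervals with little spread within a treatment, and a difference by prenatal history adds to that spread. Few differences and similar medians among these intervals are therefore partly set by the choice, and the values are a description.

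Among the intervals raised in both offspring groups were those of negative regulators of the TLR4 response. The interval 6088 bp from Dusp1 (chr17:26514560-26515224), a phosphatase that switches off the kinases p38 and JNK, had rank scores of 74.9, 71.4, 84.7, 72.8 and 74.1 in MIA_LPS replicates 1 to 5 (replicate order also below), 0 in all 6 MIA_SAL libraries, 64.2 to 79.7 with a median of 72.7 in CON_LPS and 0 in all 5 CON_SAL libraries. A peak was thus among those kept in every LPS library and in no saline library. Its response was 75.6 ± 6.3 (SE) in MIA and 72.8 ± 6.1 in CON offspring, with a difference of -2.74 ± 8.7. Dusp1 was the raised interval with the largest response shared by both groups in the lists of feedback, immediate early and glucocorticoid genes.

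Intervals of inflammatory genes also rose in both groups. At the promoter of Cxcl2 shown above (interval chr5:90903026-90903976) the scores were 59.3, 66.4, 76.4, 65.1 and 69.7 in MIA_LPS, 0 to 53.3 with a median of 14.1 in MIA_SAL, 55.3 to 74.5 with a median of 64.9 in CON_LPS, and 11.3, 43.9, 34.0, 0 and 0 in CON_SAL. LPS and saline libraries did not overlap, and the MIA and CON libraries did. The response was 47.0 ± 8.9 in MIA and 48.8 ± 8.6 in CON offspring, with a difference of 1.82 ± 12.4. Inside Ikbke (chr1:131276645-131277312), the kinase IKK-epsilon that activates interferon regulatory factors, the scores were 81.5, 65.4, 68.0, 80.7 and 72.9 in MIA_LPS, 0 in every MIA_SAL library, 46.1 to 86.1 with a median of 66.0 in CON_LPS, and 8.09 in CON_SAL replicate 2 against 0 in the other 4. Every LPS library stood far above every saline library. The responses were 73.7 ± 7.5 in MIA and 62.8 ± 7.2 in CON offspring (difference -10.9 ± 10, adjusted p 0.971). An interval 9435 bp from Il12b, a subunit of interleukin 12, responded by 50.8 in MIA and 54.6 in CON offspring, and 1 inside the interferon-stimulated Ifi204 by 38.8 and 42.04. Other intervals of the inflammatory and interferon lists fell in both groups. Inside Nlrp3 the response was -31.5 in MIA and -30.5 in CON offspring, and 6027 bp from Oasl1 (nearest gene end Oasl2) it was -37.9 and -28.2.

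At the promoter of Mt2 (interval chr8:94171331-94172968) the scores were 63.5, 73.9, 47.5, 76.7 and 60.7 in MIA_LPS, 0 to 21.0 with a median of 2.70 in MIA_SAL, 57.5 to 87.6 with a median of 67.6 in CON_LPS, and 12.5, 35.0, 43.2, 0 and 0 in CON_SAL. All LPS libraries stood above all saline libraries. The response was 57.1 ± 8.7 in MIA and 50.5 ± 8.4 in CON offspring. The other promoters printed above responded by 49.2 in MIA and 54.3 in CON offspring at Slco2b1, by 59.8 and 55.5 at Sqor, by 64.6 and 52.2 at Capg, by 54.3 and 50.8 at Trem1, and by -51.5 and -60.3 at Pygm.

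Between Trem2, a receptor for lipids on microglia, and its neighbour Treml1 (chr17:48355742-48356487) the scores were 68.4, 61.1, 77.5, 75.8 and 58.0 in MIA_LPS, 0 in every MIA_SAL library, 39.1 to 67.7 with a median of 62.4 in CON_LPS, and 22.3 in CON_SAL replicate 1 against 0 in the other 4. LPS and saline libraries did not overlap. The response was 68.2 ± 7.7 in MIA and 52.04 ± 7.5 in CON offspring, and the difference of -16.1 ± 11 did not pass (adjusted p 0.971, limma). Inside Irf2 (an interferon regulatory factor) the response was 66.8 in MIA and 69.9 in CON offspring, inside Pfkfb3 (an enzyme that speeds glycolysis) 67.2 and 70.0, and 2311 bp from Apoe (a lipid carrier of disease-associated microglia) 59.0 and 64.8. For the interval near Apoe the nearest gene end was that of Apoc1, 686 bp away. The largest raised responses shared by both groups were near Niban2 with 88.1 in MIA and 86.1 in CON offspring, Rhov with 80.5 and 85.1, Scarb2 with 75.8 and 77.5, Azin1 with 74.4 and 73.9, Ell with 73.5 and 72.8, Jarid2 with 75.5 and 72.7, and Id3 with 72.4 and 74.9.

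Among the intervals lowered in both groups was that inside Tgfbr2 (chr9:116122855-116123514), the type II receptor of TGF-beta, a signal that keeps the resting identity of microglia. There the scores were 0 in all 5 MIA_LPS libraries, 25.7 to 61.3 with a median of 50.8 in MIA_SAL, 0 in all 7 CON_LPS libraries, and 68.3, 43.7, 53.2, 38.7 and 59.4 in CON_SAL. The peak left the kept list in every LPS library of both groups. The response was -46.8 ± 7.3 in MIA and -52.7 ± 7.1 in CON offspring, with a difference of -5.91 ± 10. Inside Golm1 (chr13:59672226-59672598), a gene of the homeostatic list, all 12 LPS libraries were at 0 as well, while MIA_SAL libraries ran from 47.0 to 59.6 with a median of 56.7 and CON_SAL libraries were at 60.9, 39.1, 47.5, 43.3 and 52.02. Other intervals of the same lists rose in both groups. Inside Ltbp1 of the TGF-beta list the response was 54.5 in MIA and 56.0 in CON offspring, and inside Selplg of the homeostatic list 45.6 and 42.6.

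Inside P2ry12 and the overlapping Med12l (chr3:59234818-59235206) the scores were 11.4, 33.9, 39.9, 15.9 and 14.9 in MIA_LPS, 52.3 to 65.9 with a median of 58.5 in MIA_SAL, 0 to 60.8 with a median of 34.4 in CON_LPS, and 69.4, 67.4, 66.8, 61.5 and 62.5 in CON_SAL. P2ry12 encodes the ADP receptor used in the sort. The MIA_LPS libraries were all below the MIA_SAL libraries, and CON_LPS spread widely, with 1 library at 60.8. The responses were -36.2 ± 9.1 in MIA (adjusted p 0.0079) and -35.5 ± 8.8 in CON offspring (adjusted p 0.0069). At the end of Uba7 (chr9:107983310-107983934), the enzyme that activates ISG15, the scores were 0 in every MIA_LPS library, 59.4 to 68.4 with a median of 62.5 in MIA_SAL, 0 to 2.35 with a median of 0 in CON_LPS, and 82.4, 58.2, 59.6, 65.6 and 66.5 in CON_SAL. Both LPS groups were at or near 0. The other largest losses shared by both groups were near 1700025G04Rik with -72.2 in MIA and -71.7 in CON offspring, Cmtm7 with -64.8 and -62.3, the potassium channel gene Kcnk2 with -64.6 and -59.0, Trim33 with -56.2 and -64.6, Angpt4 with -55.6 and -69.5, Efcc1 with -65.2 and -55.5, and Fat3 with -55.4 and -62.5.

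**Figure D3:**
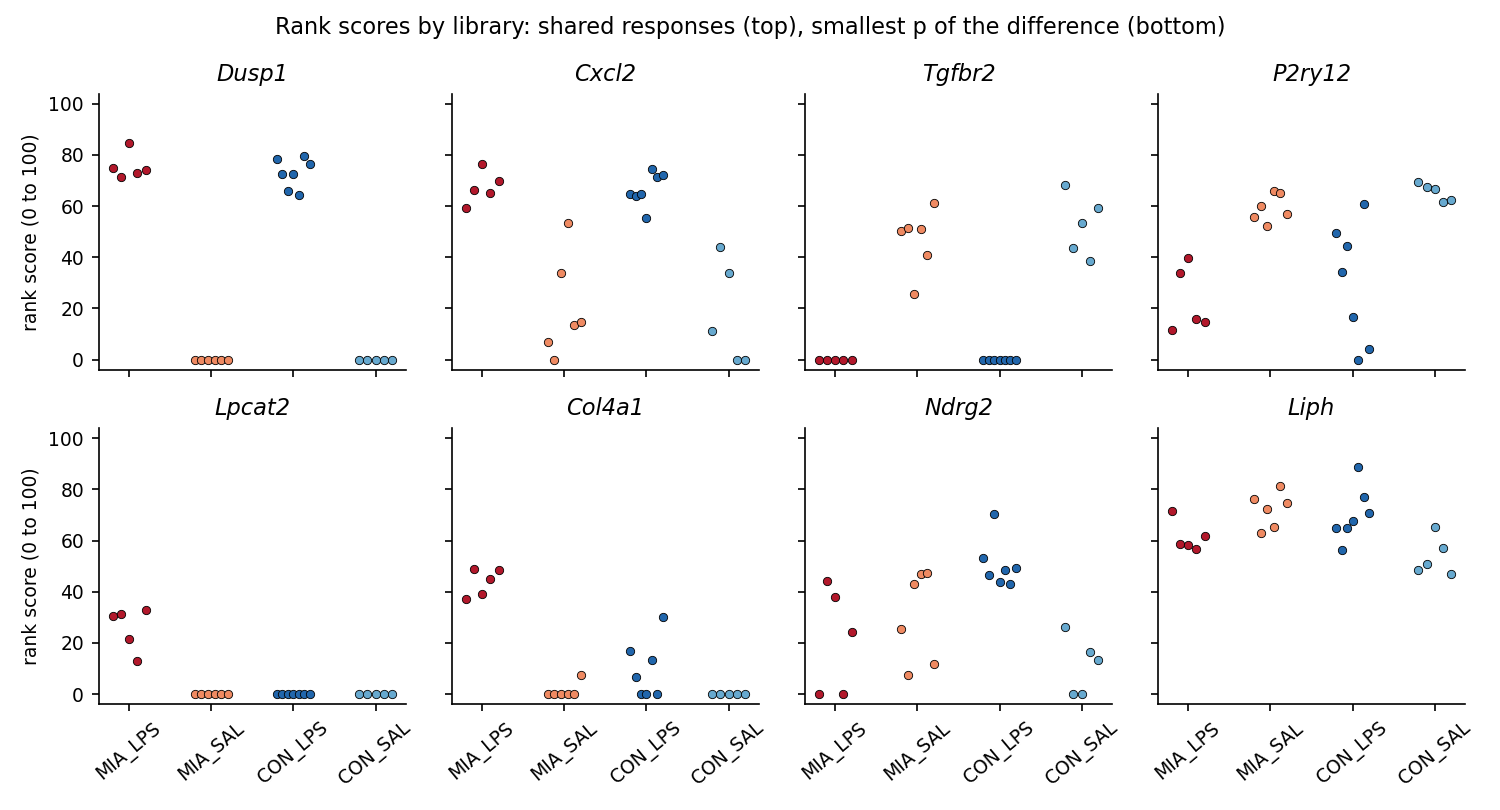
Rank scores (0 to 100, y axis) of 8 intervals in each library (points) by group, each panel named by its gene. In the top row both offspring groups moved the same way, as at Dusp1 with medians of 74.1 in MIA_LPS, 0 in MIA_SAL, 72.7 in CON_LPS and 0 in CON_SAL, and the bottom row shows intervals chosen for a small p of the difference.

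By gene list, intervals within 20 kb of listed genes were called in similar numbers in both offspring groups. Near NF-kB and acute inflammatory genes 34 of 199 intervals rose in MIA and 30 in CON offspring, and 7 and 5 fell. Near feedback and tolerance regulators 29 of 191 rose in MIA and 25 in CON offspring, and 6 and 3 fell. Near genes of TLR4 signalling 16 of 152 rose in each, and near interferon-stimulated genes 10 of 95 in each. In both of these lists 1 fell in MIA and 2 in CON offspring. Homeostatic microglial genes had more losses than gains, with 16 raised and 28 lowered in MIA and 11 raised and 35 lowered in CON offspring, of 293 intervals. Over all intervals tested 7.06% rose and 4.45% fell in MIA, and 6.36% rose and 5.26% fell in CON offspring.

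The remaining lists were as follows. Near complement and phagocytosis genes 18 of 136 intervals rose and 2 fell in MIA, and 12 rose and 7 fell in CON offspring. Near TGF-beta genes 17 of 140 rose and 8 fell in MIA, and 10 rose and 10 fell in CON offspring. Near glucocorticoid-responsive genes 16 of 98 rose in MIA and 19 in CON offspring, and near disease-associated microglial genes 16 of 141 and 18. For myeloid transcription factors the raised numbers were 24 of 235 in MIA and 22 in CON offspring, and for immediate early and AP-1 genes 13 of 180 and 16. For genes of synapse engulfment they were 15 of 119 in MIA and 14 in CON offspring, for glycolysis and hypoxia 10 of 100 in each, for chromatin regulators 15 of 176 in each, and for antigen presentation 5 of 99 and 3.

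The difference of the responses was called near no gene of these 15 lists by the −log10 p ranks, with a smallest adjusted p of 0.971. Its median ran from -1.12 points for the myeloid transcription factors to 0.79 for the immediate early genes, against -0.38 over all intervals. Unadjusted p under 0.05 fell on 3.06% of the intervals of the glucocorticoid list to 8.57% of those of the TGF-beta list, against 4.69% of all. Of the TGF-beta list 9 of the 12 such intervals had the more positive change in MIA and 3 in CON offspring. For the NF-kB list the numbers were 7 and 7. Among the lists of other cell types, the median difference was -4.54 points over 35 intervals near genes of border-associated macrophages, with 4 at an unadjusted p under 0.05 and the more positive change in MIA and 0 in CON offspring. Near endothelial genes the numbers were also 4 and 0, of 34 intervals, with a median of -0.73. The medians of the remaining lists were -1.46 for the oligodendrocyte lineage, -1.35 for astrocytes, 0.17 for monocytes and neutrophils, 0.54 for lymphocytes and 2.03 for neurons, with 0 to 2 such intervals in either direction.

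**Figure D4:**
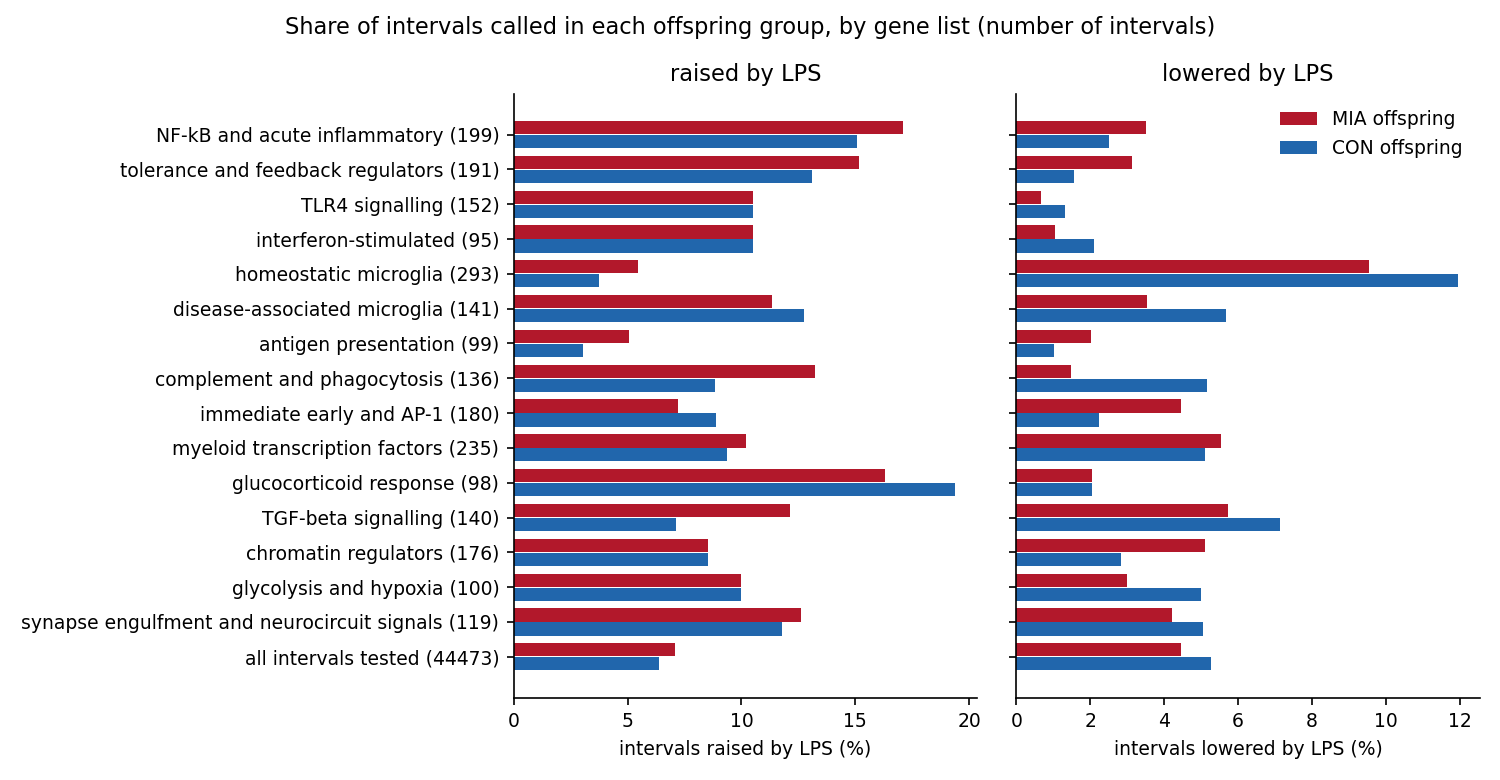
Bars give the percentage of intervals within 20 kb of the genes of a list that LPS raised (left) or lowered (right) in MIA and in CON offspring at an adjusted p under 0.05, with the number of intervals in brackets. Near NF-kB and acute inflammatory genes 34 of 199 intervals rose in MIA and 30 in CON offspring, and near homeostatic genes 28 and 35 of 293 fell.

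The intervals with the smallest p for a more positive change in MIA offspring were chosen by that p, so their values are a description. The first lay inside Lpcat2 (chr8:92882011-92882208), an enzyme that makes platelet-activating factor in inflammatory cells, and the nearest gene end was that of Capns2. Its scores were 30.6, 31.3, 21.4, 13.0 and 32.8 in MIA_LPS, 0 in all 6 MIA_SAL, 0 in all 7 CON_LPS and 0 in all 5 CON_SAL libraries. A kept peak was thus present in the 5 MIA_LPS libraries and in none of the other 18. The interval passed the filter of 3 libraries through MIA_LPS alone, so a difference in that direction was fixed by the filter, and its p-values are a description. In the full deposited lists a peak was present in 5 MIA_LPS, 0 MIA_SAL, 2 CON_LPS and 1 CON_SAL libraries, so peaks below the rank limit had been called there in CON offspring too. The difference was -25.8 ± 4.8 points by −log10 p ranks (adjusted p 0.452) and -30.3 by fold ranks (adjusted p 0.000156, limma).

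The second interval called by fold ranks lay inside Myh10 (chr11:68782476-68782718), a heavy chain of non-muscle myosin. It had scores of 21.2, 17.2, 25.8, 28.7 and 7.82 in MIA_LPS and 0 in every library of MIA_SAL, CON_LPS and CON_SAL. In the full lists a peak was present in 5 MIA_LPS, 0 MIA_SAL, 2 CON_LPS and 0 CON_SAL libraries. The difference was -20.1 ± 4.5 by −log10 p ranks (adjusted p 0.971) and -30.6 by fold ranks (adjusted p 0.0047). It too passed the filter through MIA_LPS alone. With 3 groups at 0 throughout, 18 libraries gave no spread, and the standard errors lean on the spread shared across intervals. By fold ranks 2 intervals were called with no filter and 0 with normal scores in place of ranks.

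Nearest to Col4a1, a chain of basement membrane collagen, an interval between genes (chr8:11168023-11168340) had scores of 37.0, 49.0, 39.0, 45.0 and 48.5 in MIA_LPS, 0 to 7.64 with a median of 0 in MIA_SAL, 0 to 30.1 with a median of 6.70 in CON_LPS and 0 in every CON_SAL library. The MIA_LPS libraries all lay above the highest CON_LPS library. The response was 42.4 ± 5.6 in MIA (adjusted p 5.7e-06) and 9.52 ± 5.4 in CON offspring (adjusted p 0.28). The difference was -32.9 ± 7.7 (adjusted p 0.971). Of the other such intervals, 4 were inside Gng7, Reep3 and Gnptab and beside Hspa8, with differences of -42.01 to -21.0. At Gng7, Reep3 and Hspa8 the other groups together held fewer than 3 libraries with a kept peak. These intervals thus also passed the filter only through MIA_LPS, and their p-values are a description.

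Of the 8 intervals with the smallest p for a more positive change in CON offspring, 7 had a peak in all 23 libraries. At the promoter of Liph printed above (interval chr16:21995266-21995770) the scores were 71.4, 58.7, 58.2, 56.7 and 62.0 in MIA_LPS, 63.0 to 81.1 with a median of 73.4 in MIA_SAL, 56.2 to 88.8 with a median of 67.8 in CON_LPS, and 48.5, 50.9, 65.3, 57.2 and 47.0 in CON_SAL. The MIA_SAL libraries were mostly above the CON_SAL libraries, and the LPS groups overlapped. The response was -10.7 ± 4.9 in MIA (adjusted p 0.17) and 16.3 ± 4.7 in CON offspring (adjusted p 0.022), with a difference of 27.0 ± 6.8 (adjusted p 0.971).

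At Ndrg2 (chr14:51913122-51913932), a gene of the NDRG family, the scores were 0, 44.0, 37.9, 0 and 24.2 in MIA_LPS, 7.48 to 47.3 with a median of 34.4 in MIA_SAL, 43.0 to 70.4 with a median of 48.5 in CON_LPS, and 26.2, 0, 0, 16.2 and 13.2 in CON_SAL. The CON groups did not overlap, and the MIA groups did. The response was -9.15 ± 9.8 in MIA and 39.5 ± 9.5 in CON offspring (adjusted p 0.0054), and the difference of 48.7 ± 13.6 was the largest positive one of all intervals (adjusted p 0.971). At Clec11a (chr7:44304583-44305635), which encodes a secreted growth factor, the scores were 37.9, 49.3, 38.9, 40.2 and 40.6 in MIA_LPS, 53.7 to 75.7 with a median of 63.5 in MIA_SAL, 50.3 to 64.9 with a median of 55.8 in CON_LPS, and 45.95, 59.8, 64.5, 37.7 and 28.4 in CON_SAL. LPS libraries lay below saline libraries in MIA offspring and overlapped them in CON offspring. The difference was 31.0 ± 8.4 (adjusted p 0.971). The other 5 intervals were in Ift46, Twistnb, Mbd2 and Enoph1 with Hnrnpdl, and 37766 bp from Rbx1, with differences of 6.39 to 22.0.

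Within the gene lists, the interval of largest difference was inside Il6 for the inflammatory list (chr5:30014673-30014872), the gene of a main cytokine of the LPS response. Its scores were 29.3, 6.84, 0, 39.0 and 14.1 in MIA_LPS, 0 to 28.6 with a median of 1.56 in MIA_SAL, 0 to 28.998 with a median of 0 in CON_LPS, and 40.6, 46.6, 27.8, 43.8 and 36.6 in CON_SAL. CON_SAL had the highest median, and the highest library of each of the other 3 groups reached into its range. The response was 8.79 ± 7.8 in MIA (adjusted p 0.54) and -34.0 ± 7.6 in CON offspring (adjusted p 0.0028), and the difference was -42.8 ± 11 (adjusted p 0.971). A second Il6 interval 1508 bp away (chr5:30012843-30013686) went the other way. Its response was -4.88 in MIA and 6.35 in CON offspring, with a difference of 11.2 ± 5.2. Inside Itgam (chr7:128065669-128065873), the CD11b gene used in the sort, the scores were 46.9, 46.3, 68.1, 61.3 and 62.3 in MIA_LPS, 0 to 59.8 with a median of 32.5 in MIA_SAL, 26.4 to 57.3 with a median of 46.8 in CON_LPS, and 56.7, 58.3, 15.1, 54.7 and 62.9 in CON_SAL. All 4 groups overlapped. The difference was -33.3 ± 14 (adjusted p 0.971), whereas an interval 11378 bp from Itgam rose in both, by 45.3 in MIA and 52.1 in CON offspring.

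In other lists the largest difference was positive near Acvr1 (a receptor of the TGF-beta family, 37.4 ± 14), Pkm (pyruvate kinase, 32.4 ± 14), Batf3 (an AP-1 family factor, 27.8 ± 13) and H2-Eb1 (an MHC class II chain, 34.1 ± 16). It was negative near Zc3h12a (the RNase regnase-1, -41.8 ± 15), Ikbke (-32.3 ± 14), Parp14 (an ADP-ribosyltransferase induced by interferon, -35.2 ± 13), Upk1b (-39.9 ± 15), Ctsd (the protease cathepsin D, -33.4 ± 8.2), Rxra (the retinoid X receptor alpha, -30.05 ± 15) and Fkbp5 (a glucocorticoid-induced co-chaperone, -23.0 ± 11). For each of these the limma adjusted p was 0.971. Some of these intervals had the end of another gene nearest: Nsl1 for Batf3, H2-Eb2 for H2-Eb1, Meaf6 for Zc3h12a and Srgap2 for Ikbke. For Upk1b it was B4galt4 and for Ctsd Ifitm10. At Pkm the sign rested on CON_SAL, where a kept peak was in 0 of 5 libraries, against 4 of 5 in MIA_LPS, 5 of 6 in MIA_SAL and 7 of 7 in CON_LPS.

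Intervals with an unadjusted p under 0.05 were split unevenly by direction. They were 4.69% of those tested, about the share that such a threshold gives with no difference, so the split is a description. The change was more positive in MIA offspring at 1327 of them (2.98% of those tested) and more positive in CON offspring at 758 (1.7%). At gene ends, no more than 1 kb from the first or last base of a protein-coding gene, the numbers were even, 278 in MIA and 282 in CON. In gene bodies they were 609 and 289, and between genes 440 and 187. The share with the more positive change in MIA offspring was 63.6% of the 2085, and 51.2% with normal scores in place of ranks, 57.3% with the number of deposited peaks as a covariate and 56.4% without the libraries whose ID number in the labels is 1 to 3. The number of deposited peaks was highest in MIA_LPS, and its part in this split was not tested beyond that covariate. For an interval that passed the filter of 3 libraries through 1 group alone, the filter fixed the sign. The split was not made without such intervals.

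**Figure D5:**
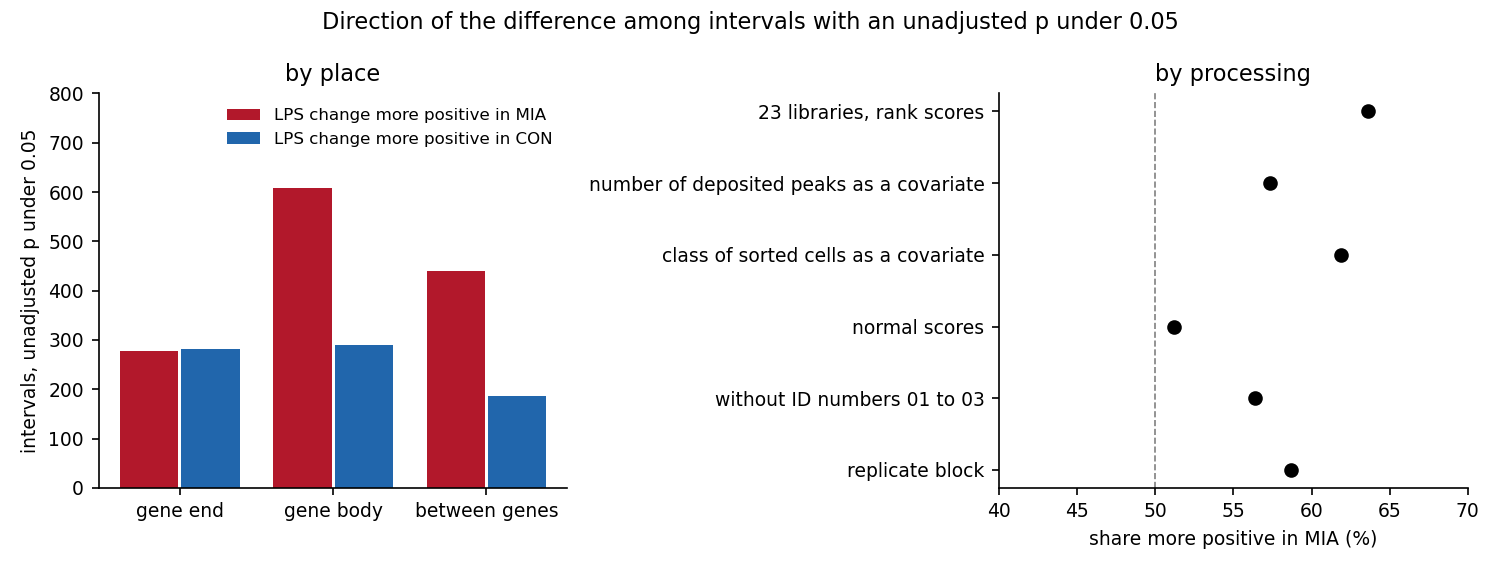
The left panel counts intervals with an unadjusted p under 0.05 (y axis) by place and by the offspring group with the more positive LPS change, and the right panel gives the share in which that was MIA (x axis, percent) under 6 ways of processing. Gene bodies hold 609 and 289 such intervals, gene ends 278 and 282, and the share lies between 51.2% and 63.6%.

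The raised intervals had similar places in both offspring groups. Of the intervals raised in MIA offspring 10.4% were at gene ends, 49.5% in gene bodies and 40.1% between genes, and of those raised in CON offspring 12.2%, 47.6% and 40.2%, against 28.0%, 42.05% and 29.9% of all intervals tested. Of those lowered, gene ends held 19.2% in MIA and 15.0% in CON offspring. By nearest gene, 2087 genes had a raised interval in MIA and 1945 in CON offspring. Of these, 1452 had one in both groups, and in 78 of the 1452 no interval was raised in both.

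A change of place within 1 gene was looked for as intervals with differences of opposite sign. It was found at an unadjusted p under 0.05 on both sides for 92 of the 8253 genes with 2 or more intervals (1.12%), and these had a median of 10 intervals against 3 for all 8253. The case with the smallest p lay at Cd244a, a receptor of the SLAM family, where intervals 3077 bp apart gave differences of 40.7 ± 11.8 and -35.7 ± 10.9. At the first (chr1:171564344-171564641) LPS changed the score by -27.2 in MIA and 13.5 in CON offspring, and at the second (chr1:171561238-171561592) by 17.9 and -17.8. No test of such pairs was made.

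Within an interval, a change of place would move the summit of the peak. Summits were compared at the 15961 intervals with a peak in all 23 libraries. The summit of a library was that of its best-ranked peak in the interval, where a library can hold several peaks. A shift is a difference of mean positions, and a large one can be a change of which summit was best. These were not told apart. The difference of the summit shift was called at 0 of them (0.0%, smallest adjusted p 0.488, limma), with 639 (4.0%) at an unadjusted p under 0.05, and the median size of the difference was 18.9 bp with a median standard error of 25.7 bp. LPS itself moved the summit at 33 intervals in MIA (0.207%) and 20 in CON offspring (0.125%), of which 11 were called in both, and at 41 of the 42 called in either the shift had the same direction in both. At Lpgat1, an acyltransferase gene, the summit moved by 302 ± 22.7 bp in MIA and 339 ± 22.0 bp in CON offspring. Inside Alox5ap, the protein that presents arachidonic acid to 5-lipoxygenase, the mean position changed by 494 ± 75.4 bp in MIA and 590 ± 72.9 bp in CON offspring. There the summit lay 393 to 418 bp from the interval start in MIA_SAL and 394 to 1024 bp, with a median of 1023, in MIA_LPS. At Vim, the intermediate filament vimentin, the mean position changed by -906 ± 99.2 bp in MIA and -660 ± 95.9 bp in CON offspring (difference 246 ± 138 bp, limma adjusted p 0.969). The CON_SAL summits there ran from 469 to 1210 bp, with a median of 1165.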

How the data were processed

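ATAC-seq peaks of 23 libraries were used. The submitters' processing notes name the builds mm10 and GRCm38 and the tools MACS2 and DiffBind, cutadapt, SAMtools, Picard and Bowtie2, with versions not given in the sources used here. From the values, the authors' deposited columns are a ratio (fold enrichment at the summit), a −log10 p, a −log10 q, the summit's distance from the peak start, and an integer score that follows the −log10 q and was not used. The lowest deposited −log10 q was 1.301. No counts were used, so depth is unknown, and fold and −log10 p served only to rank peaks within a list.

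Each list was cut to the 33900 best peaks by −log10 p on chromosomes 1 to 19 and X, and peaks that overlapped by at least 1 bp were merged over libraries (median interval 472 bp). Rank scores were fitted with limma 3.58.1 (R 4.3.3, trend on the mean, 4 group means, all 23 libraries, 1 shared spread), and contrasts were adjusted by Benjamini-Hochberg, with a call at an adjusted p under 0.05. The fit and the score were tested on simulated data. Scores, exact permutations, Fisher and Zelen tests ran in Python with scipy 1.17.1. Genes came from a RefSeq table of GRCm38.p6 (21627 protein-coding genes, nearest gene end within 100 kb, list genes within 20 kb), and no name shows that an interval controls the gene. The 23 lists held 470 entries, of which 2 (Mx1 and Mx2) were not matched. Promoters came from a RefSeq table of the same build, 1 start for each gene. The NF-kB and ISRE letters were shortened to 9 after matches to forms longer by 1 letter had been seen.

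Named were the 8 intervals of smallest p in each direction of the difference with the same sign by fold, the 8 raised and the 8 lowered with the largest response shared by both groups, and in each list the largest difference, some of which are not reported here. The largest shared response of each list, the printed promoters and the genes of the paragraphs on relocation and summits were chosen after their values were seen. The members and lists were chosen with earlier results of these data known. Alternatives were other list lengths, a stricter −log10 q, windows of 501 bp on summits, other filters, normal scores, covariates, blocks and libraries left out.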

Additional observations from a re-analysis of the deposited data

Results flagged for a closer look

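In 80 groups of values looked at, 9 (11.2%) held a library far from the others, where chance gives about 1 in 20, and groups with many libraries at 0 are flagged by a single low peak. The 80 include groups with every library at 0, which cannot be flagged, so the share among the rest was higher. At Ndrg2 CON_LPS replicate 3 had 70.4, at Clec11a MIA_LPS replicate 2 had 49.3, at Dusp1 MIA_LPS replicate 3 had 84.7, and inside Itgam CON_SAL replicate 3 had 15.1. Lone peaks among libraries at or near 0 were 7.64 in MIA_SAL replicate 6 near Col4a1, 28.998 in CON_LPS replicate 4 inside Il6, 2.35 in CON_LPS replicate 6 at Uba7, 8.09 in CON_SAL replicate 2 inside Ikbke and 22.3 in CON_SAL replicate 1 near Trem2. No LPS score and no number of deposited peaks was flagged.

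The intervals inside Lpcat2 and Myh10 were flagged because limma's test of the difference by fold ranks called them, at -30.3 and -30.6 points (CON minus MIA, adjusted p 0.000156 and 0.0047). The −log10 p ranks gave adjusted p of 0.452 and 0.971, and a kept peak was present in 5 of 5 MIA_LPS and 0 of the other 18 libraries at both, so both passed the filter on peaks through MIA_LPS alone and these p-values are a description.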

How the results depend on the processing

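Counts of intervals called depended on the lists. With 16950 peaks a list, 1933 intervals were called for LPS in MIA, 1985 in CON offspring and 0 by fold for the difference, against 5119, 5168 and 2, and the peaks inside Lpcat2 and Myh10 are not among those best 16950. With all deposited peaks the difference was called at 2 intervals by −log10 p ranks and 7 by fold, and the response in CON offspring at 2455. Over intervals with a peak in all libraries 988 were called in MIA and 1191 in CON offspring and 0 by fold for the difference, a set that cannot hold the intervals inside Lpcat2 and Myh10, and the score difference turned to 0.39 by −log10 p and 0.40 by fold ranks. The presence of a peak gave 0 calls in MIA and 0 in CON offspring, where the smallest p that Fisher's exact test allows stood at an adjusted 0.112 and 0.0906, and 0 for the difference, where the smallest p that Zelen's test allows, 8.64e-06, could not pass at a single interval. No filter gave 1 call of the difference by −log10 p ranks. By fold, a −log10 q of at least 5 gave 1, normal scores 0 and leaving out ID numbers 1 to 3 gave 9. Within libraries of under 20000 sorted cells the score difference turned to 2.70 by −log10 p and 2.90 by fold ranks. The causes of these changes were not tested.

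Leaving out 1 library at a time gave 0 to 2 calls of the difference by −log10 p ranks, 2 to 5 by fold, 3947 to 5370 in MIA, 3941 to 5403 in CON offspring and 0 to 1 for the summit shift (1 without CON_LPS replicate 7). The score difference ran from -4.49 to 0.14 by −log10 p and from -4.55 to 1.25 by fold ranks. It was 0.14 and 1.25 without CON_SAL replicate 3, and 0.46 by fold without MIA_LPS replicate 1. The share of intervals with the more positive change in MIA, examined after the data were seen, was 56.2% to 67.3% without 1 library, 61.9% with the class of cells as a covariate and 58.7% with the replicate block. Replicate numbers shared by groups did not pair libraries: over 31 pairs with the same number the mean correlation of deviations was 0.028, the lowest -0.159, against -0.0044 over 166 other pairs. The 6 pairs of an LPS and a saline library with the same ID number had a mean of 0.0921 and a lowest of 0.0441, and the correlation fitted within ID numbers was 0.131 by −log10 p and 0.194 by fold ranks. With the ID number as a random block the difference was called at 0 intervals by −log10 p ranks and 2 by fold, and the responses at 5501 in MIA and 5155 in CON offspring. With the replicate number as a block 0 intervals were called for the difference by −log10 p ranks, 1 by fold, 5012 in MIA, 4646 in CON offspring and 0 for the summit shift. At the 30 named intervals, 0 of 870 alternative values changed sign and 3 passed the threshold, among them those at Gng7 without MIA_LPS replicate 3 and at the Lpcat2 interval without MIA_LPS replicate 4. Both of these passed the filter on peaks only through MIA_LPS, so their calls are a description. The 30 named intervals were chosen by the p or the size of their difference in the same libraries. Many of the alternatives only leave out 1 library, so the kept sign was largely set by that choice. Without read counts, a rank of 0 does not show closed chromatin.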
